A study of Mus musculus with 3 samples.

Results

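The genes of the receptor activity-modifying proteins (RAMPs), of the receptor Calcrl that they accompany, and of the peptide adrenomedullin (Adm) were examined in bone marrow-derived macrophages (BMDMs). The 5 members were Ramp1, Ramp2, Ramp3, Calcrl, and Adm, out of 34821 gene names on the array, and 8 probes carried their names. The members were picked on measured values, after Ramp3 was seen to be high in the triple condition, so that the Ramp3 signals below are a description. BMDMs of C57BL/6J mice, grown from marrow of femur and tibia with M-CSF, a growth factor of macrophages, were stimulated for 20 h and their total RNA was hybridized to 3 arrays. The CpG group received CpG, a DNA ligand of Toll-like receptor 9, the IFN-g+IL-10RB group received interferon-γ together with an antibody that blocks the receptor for interleukin-10, and the triple group received all of these agents. Every group thus carried M-CSF and at least 1 stimulus, and an untreated array was not analysed here. The age and sex of the mice, and whether marrow was pooled, were not given in the labels. With 1 array per condition, the differences have no replicate check and no test between conditions was possible.

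RAMPs are small proteins that cross the membrane once and travel to the cell surface with Calcrl, a receptor coupled to G proteins. The accompanying RAMP sets which peptide the receptor binds best: with RAMP1 it is a receptor for calcitonin gene-related peptide (CGRP), and with RAMP2 or RAMP3 it is a receptor for adrenomedullin. These receptors signal mainly through cyclic AMP. Adrenomedullin is a secreted peptide that widens blood vessels and maintains the endothelial barrier, and macrophages are among the cells known to make it.

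The processed signal is an intensity, given here as deposited, with the scanner software's own error after ±, which covers the spot and not the culture. By the software's test, between 44.4% and 46.0% of the spots of an array were well above background. No spot was saturated, and no member spot carried an outlier mark. Of 8 macrophage markers 7 were measured, and these 7 were well above background on all 3 arrays, with a summed signal between 522300 and 610700. Single markers differed more than this sum. Cd14 was 5534 in IFN-g+IL-10RB and 90960 in triple, and Mertk was 812 in CpG and 3164 in triple. Cd68 went the other way, from 190900 in IFN-g+IL-10RB to 83200 in triple. Of 8 endothelial markers 7 were measured, and Kdr alone was well above background on all 3 arrays, at 5344 for CpG, 5725 for IFN-g+IL-10RB, and 5706 for triple, whereas Cdh5 was so on the CpG array only and Tek, Tie1, Emcn, Esam, and Cldn5 on none.

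**Figure D1:**
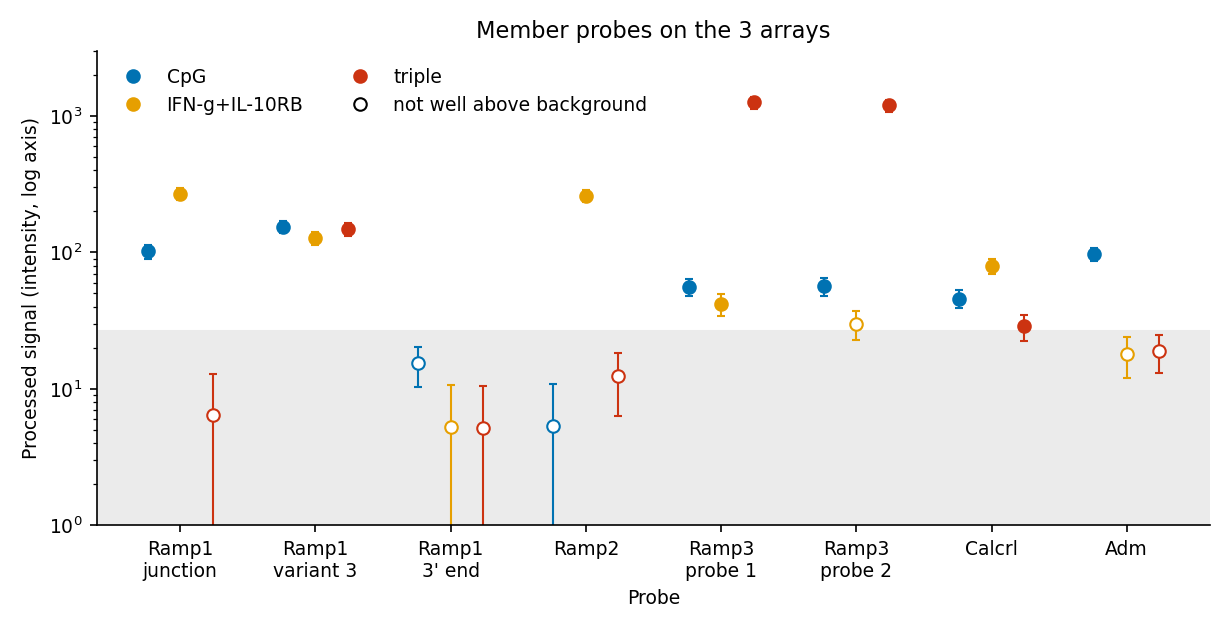
Processed signal (intensity, log axis) of the 8 member probes on the CpG, IFN-g+IL-10RB, and triple arrays, with the software's error of the spot as bars and open symbols for signals not well above background. The grey band ends at 26.7, the highest of the 3 arrays' lowest signals well above background. Ramp3 stands at 1257 and 1196 on the triple array, Ramp2 and the Ramp1 junction probe stand highest on the IFN-g+IL-10RB array, and Adm stands highest on the CpG array.

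The members did not move together. Ramp3 was highest in triple, Ramp2 was well above background in IFN-g+IL-10RB only, Adm was well above background in CpG only, and Calcrl was well above background on all arrays, with its highest signal in IFN-g+IL-10RB. The 3 probes of Ramp1 disagreed with each other.

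Ramp3, which with Calcrl forms an adrenomedullin receptor, gave a signal of 55.5 ± 7.95 for CpG, 41.8 ± 7.47 for IFN-g+IL-10RB, and 1257 ± 126 for triple, each well above background. The triple array was far above both others, which lay close to background. After scaling, the difference was 4.94 on the log2 scale for triple over IFN-g+IL-10RB (30.7-fold, with a technical SD of 0.40 taken from replicate spots of like brightness), and 4.56 for triple over CpG (23.6-fold, SD 0.39). CpG over IFN-g+IL-10RB gave 0.38, which was smaller than its technical SD of 0.55. Normexp background correction, whose offset of 50 by construction pulls in the folds of dim signals, brought the differences from the triple array to 3.57 and 3.47.

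The second Ramp3 probe lies far from the first on the array, in row 36 against row 190. Its signals were 56.3 ± 8.38 for CpG, 30.0 ± 7.13 for IFN-g+IL-10RB, which was not well above background, and 1196 ± 120 for triple. It was again the triple array that stood apart, by 4.46 on the log2 scale over CpG and by 5.35 over IFN-g+IL-10RB, the latter taken against a signal that was not well above background. The probes cover chr11:6577416-6577475 and chr11:6577424-6577483 of the mouse genome build mm9 and share 52 of their 60 bases, so that they read the same stretch of RNA. The spots within 5 rows and 5 columns of these probes had median log2 folds between -0.11 and 0.03 for the comparisons with the triple array. Before background subtraction the mean spot signals were 126, 120, and 1348 at the first probe, for CpG, IFN-g+IL-10RB, and triple in this order.

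The sequence before the Ramp3 start site is shown because the members were chosen for Ramp3, and the capitals mark a match to the NF-kB motif, the binding sequence of a factor that Toll-like receptors activate. It is taken from RefSeq, chr11:6658283-6658532 of GRCm38.p6, plus strand, 250 bases.
Ramp3: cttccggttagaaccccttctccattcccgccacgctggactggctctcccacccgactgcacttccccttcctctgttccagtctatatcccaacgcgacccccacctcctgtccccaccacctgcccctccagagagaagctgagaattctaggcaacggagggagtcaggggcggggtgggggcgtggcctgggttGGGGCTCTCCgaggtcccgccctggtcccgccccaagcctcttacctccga
The match lies from 51 to 42 bases before the start site. Of 27025 promoters of the same length of 300 bases, of which 50 follow the start site, 8.18% held a match on either strand. The Ramp3 promoter also held GGGCGG, the GC box, at 3 places (35.9% of promoters) and GCGTG, a core of the hypoxia response element, at 2 places (32.5%), none of which overlapped the capitals. It held neither the core of the interferon-stimulated response element (3.49% of promoters) nor TGACG (21.0%), a core of the cyclic AMP response element. A match in these letters is no measure of binding. The genes next to Ramp3 on the chromosome did not share its difference: Tbrg4 gave 0.85 for triple over IFN-g+IL-10RB and 0.98 for triple over CpG on the log2 scale, Igfbp1 was well above background in CpG only, and Wap and Adcy1 on no array.

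Some markers of other cells differed in the same direction as Ramp3, and others did not. Of 5 dendritic cell markers, Ccr7, Zbtb46, and Xcr1 exceeded 2-fold in triple over either other array. Of all gene names, 6.57% did so over IFN-g+IL-10RB and 7.47% over CpG. The signals of these markers in triple were 2892, 133, and 60.7. Siglech, the brightest of the list, was between 29740 and 36080, Flt3 was not well above background on any array, and the summed signal of the list was between 32840 and 36440. Of 6 fibroblast markers 5 were measured, with a summed signal between 332 and 629, and Lum, a matrix proteoglycan, gave 148 in triple without being well above background on the others. The collagen genes Col1a1 and Col1a2 did not follow it, with 177 for CpG, 94.5 for IFN-g+IL-10RB, and 98.3 for triple at Col1a1, and 317.5 for CpG, 215.5 for IFN-g+IL-10RB, and 318.5 for triple at Col1a2. A further collagen gene, Col3a1, was dim, with 38.8 for CpG and 58.5 for triple, and was not well above background in IFN-g+IL-10RB. It was at least 2.24-fold higher in triple than in IFN-g+IL-10RB and within 2-fold of CpG. Camp, of 6 neutrophil markers whose summed signal was between 3495 and 9363, gave 139 in triple and 72.9 in CpG. In the same list Ly6g was highest in IFN-g+IL-10RB, at 7699 against 555 for CpG and 2658 for triple, Elane was highest in CpG, at 2839 against 1615 and 1539, and Mpo, Ltf, and Ngp were not well above background on any array. Of 6 lymphocyte markers, Cd3e and Cd79a were well above background on every array, and the summed signal was between 881 and 969. The part of such cells in the Ramp3 signal was not tested, and in bulk RNA fewer cells of a type and less RNA per cell cannot be told apart.

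The pattern of Ramp3 was compared with that of 11502 other genes that had a RefSeq symbol and were well above background on all arrays. Likeness was the distance between the pairs of log2 folds of triple over CpG and triple over IFN-g+IL-10RB. The closest was Ly6i, a surface protein of the Ly6 family, at a distance of 0.61, with signals of 106 for CpG, 109 for IFN-g+IL-10RB, and 2179 for triple. Next came Traf1, an adaptor of TNF receptors, at 0.79, then Thbs1 (thrombospondin-1, a matrix glycoprotein) at 1.06, Procr (the endothelial protein C receptor) at 1.20, and Ppap2a, an older name of the lipid phosphatase Plpp1, at 1.22. Procr had 1418 for CpG, 1232 for IFN-g+IL-10RB, and 61890 for triple. The 3 arrays fix only a pair of folds per gene, so that this likeness says nothing beyond those folds.

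**Figure D2:**
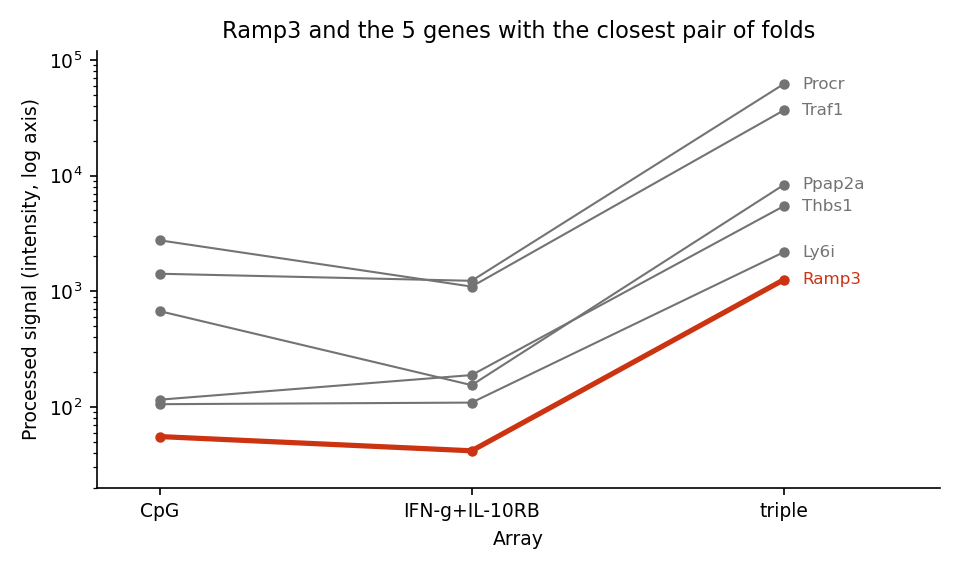
Processed signal (intensity, log axis) of Ramp3 and of the 5 genes whose folds of triple over the other arrays were closest to those of Ramp3, on the 3 arrays. Each line joins the signals of the probe that represents a gene, and all 6 lines are highest on the triple array.

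Ramp2, the other RAMP that makes Calcrl an adrenomedullin receptor, gave 5.38 ± 5.41 for CpG, 260 ± 26.7 for IFN-g+IL-10RB, and 12.4 ± 6.09 for triple. The IFN-g+IL-10RB signal alone was well above background, and the CpG value is a surrogate that the software sets for a spot at background. The mean spot signals before subtraction were 69.1, 345, and 86.5 in the same order, so that the difference was present in the unsubtracted data. Ramp2 was at least 9.67-fold lower in triple than in IFN-g+IL-10RB and at least 11.2-fold lower in CpG, and no fold is given for triple over CpG, where both signals were dim. These bounds were -3.27 and -3.48 on the log2 scale, with technical SDs of 0.45 and 0.40, and became -1.76 and -1.91 with normexp. The probe covers chr11:101109501-101109560 of mm9. Of its neighbours on the chromosome, Ezh1, Vps25, and Cntnap1 stayed within 2-fold in every comparison, with log2 folds between -0.34 and 0.31, and Wnk4 was dim on all arrays.

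Ramp1, which with Calcrl forms the CGRP receptor, had 3 probes, and they gave different pictures. The probe shown here is the only member probe that crosses an exon junction, since its 60 bases span 26256 bases of the genome, chr1:93093453-93119708 of mm9, and it starts at position 424 of transcript variant 1. No other probe of the array holds its letters.
Ramp1 junction probe: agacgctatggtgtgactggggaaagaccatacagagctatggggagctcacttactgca
Its signals were 101 ± 11.8 for CpG, 269 ± 27.7 for IFN-g+IL-10RB, and 6.47 ± 6.33 for triple, which was not well above background. The order was the same in the mean spot signals before subtraction, at 167, 350, and 91.3. The junction probe was at least 10.0-fold lower in triple than in IFN-g+IL-10RB (-3.32 on the log2 scale, technical SD 0.45), and -1.43 for CpG over IFN-g+IL-10RB (SD 0.18) was a measured difference. In triple it was at least 3.71-fold lower than in CpG (-1.89, SD 0.46), and normexp brought this to -0.71, inside 2-fold. Spots around it had a median of -0.23 for triple over IFN-g+IL-10RB and -0.14 for triple over CpG, in the direction of the difference but much smaller.

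The probe of Ramp1 transcript variant 3, at chr1:93103294-93103353 of mm9, lies inside the span of the junction probe. It gave 154 ± 16.3 for CpG, 128 ± 14.0 for IFN-g+IL-10RB, and 147 ± 15.8 for triple, all well above background. These signals were well within 2-fold of each other. The log2 folds were 0.23 for triple over IFN-g+IL-10RB (technical SD 0.19), -0.01 for triple over CpG (SD 0.21), and 0.24 for CpG over IFN-g+IL-10RB (SD 0.18). The folds over IFN-g+IL-10RB were thus slightly larger than their SDs. The remaining Ramp1 probe, at chr1:93121428-93121487 and position 2203 of variant 1, was not well above background on any array, with signals of 15.3, 5.28, and 5.20 in the order CpG, IFN-g+IL-10RB, and triple. Its IFN-g+IL-10RB and triple values are surrogates, as is that of Ramp2 for CpG. The junction probe and this probe are thus assigned to the same transcript variant, and only the former gave a signal. The variant 3 probe, the brightest on average, represented Ramp1 where genes were counted. Taking the junction probe in its place, a choice made after its values were seen, gave -3.32, -1.89, and -1.43 for Ramp1. Neighbours of Ramp1 on the chromosome included Ube2f, at 0.98 for triple over IFN-g+IL-10RB, and Scly, at -1.38 for CpG over IFN-g+IL-10RB on the log2 scale.

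Calcrl, the receptor itself, gave 45.9 ± 6.84 for CpG, 79.6 ± 9.71 for IFN-g+IL-10RB, and 28.6 ± 6.28 for triple at chr2:84173073-84173132 of mm9. Each signal was well above background, but that of triple lay just over the lowest such signal of its array, which was 26.3. Calcrl was 2.72-fold lower in triple than in IFN-g+IL-10RB, or -1.44 on the log2 scale with a technical SD of 0.45. The neighbours in the order of the levels were closer: CpG over IFN-g+IL-10RB gave -0.82 (SD 0.40) and triple over CpG gave -0.62 (SD 0.58), each under 2-fold. With normexp, triple over IFN-g+IL-10RB was at -0.56, inside 2-fold. The next gene on the chromosome, Tfpi, an inhibitor of coagulation, was at -1.10 for triple over CpG, -0.49 for triple over IFN-g+IL-10RB, and 0.61 for CpG over IFN-g+IL-10RB, where Calcrl had the opposite sign.

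Adm, the ligand, gave 97.3 ± 11.0 for CpG, 17.9 ± 5.94 for IFN-g+IL-10RB, and 19.1 ± 5.89 for triple at chr7:117773088-117773147 of mm9. The CpG signal alone was well above background, so the other arrays are not compared with each other. Adm was at least 3.59-fold higher in CpG than in IFN-g+IL-10RB and at least 3.55-fold lower in triple than in CpG, or 1.84 and -1.83 on the log2 scale with technical SDs of 0.42 and 0.46. With normexp these became 0.85 and -0.79, inside 2-fold. The mean spot signals before subtraction were 176, 96.1, and 100 in the order CpG, IFN-g+IL-10RB, and triple. Neighbouring genes were also higher in CpG than in IFN-g+IL-10RB: Swap70 by 1.21, Sbf2 by 0.87, and Ampd3 by 1.55 on the log2 scale, whereas Rnf141 differed by 0.24.

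Adm is known as a gene that responds to low oxygen, and its upstream sequence is shown for the hypoxia response element cores that it holds, in capitals. It is chr7:110627407-110627656 of GRCm38.p6, plus strand, from RefSeq, 250 bases.
Adm: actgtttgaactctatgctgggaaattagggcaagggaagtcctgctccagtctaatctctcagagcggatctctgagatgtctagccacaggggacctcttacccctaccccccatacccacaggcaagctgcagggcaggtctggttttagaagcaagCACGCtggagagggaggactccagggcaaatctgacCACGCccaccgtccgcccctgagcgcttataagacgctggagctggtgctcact
GCGTG, which 32.5% of promoters hold, was found at 2 places, both on the minus strand, starting 90 and 54 bases before the start site. The capitals thus show the complement of this core read backwards. The other form of the core, ACGTG, was not found and is held by 19.7% of promoters. Of the 4 members with a promoter sequence, Ramp1, Ramp3, Calcrl, and Adm, both Ramp3 and Calcrl also held GCGTG. In Calcrl it lay 21 bases after the start site, and Ramp1 held TGACG at 10 bases after its own. None of the 4 held the interferon-stimulated core, the full cyclic AMP response element (1.88% of promoters), or TGANTCA, the AP-1 motif (7.93%), and the NF-kB motif was found in Ramp3 only.

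**Figure D3:**
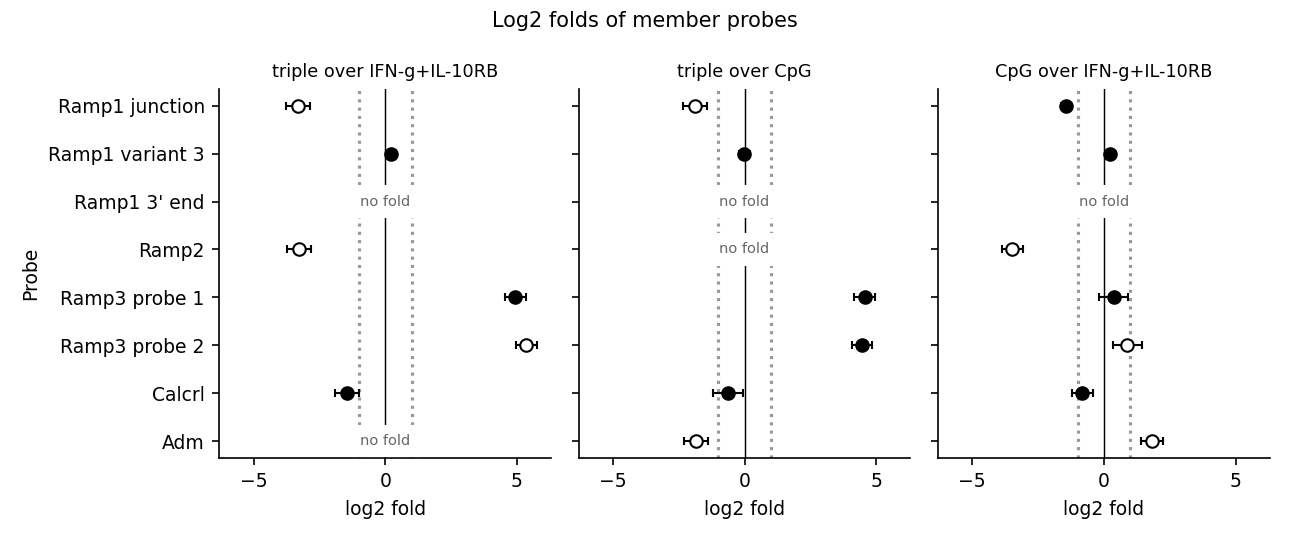
Log2 folds of the 8 member probes in the 3 comparisons, with the technical SD from replicate spots as bars, dotted lines at 2-fold, and open symbols where the lower of the signals was not well above background. Ramp3 is the member to the right of the lines in both comparisons of triple, and Ramp2 and the Ramp1 junction probe are far to the left for triple over IFN-g+IL-10RB.

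Counted by gene, 4 members were well above background in at least 1 array of the comparison of triple with IFN-g+IL-10RB. Ramp3 was more than 2-fold higher, where 6.57% of 18063 gene names were, and Ramp2 and Calcrl were more than 2-fold lower, where 9.31% were. For triple over CpG, Ramp3 was more than 2-fold higher among 7.47% of 18335 gene names and Adm was lower among 8.34%. For CpG over IFN-g+IL-10RB, Adm was higher among 5.06% of 18280 gene names and Ramp2 was lower among 5.84%. Nothing is read from the Ramp3 calls, since they chose the members. The 3 comparisons share arrays and are not independent of each other. Here and below, shares and medians of all gene names cover only those well above background in at least 1 array of the comparison.

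The other genes of the axis were described from 7 lists with 82 genes. The list of family receptors and ligands was nearly silent. Of its 8 genes, Crcp, a protein reported to couple the CGRP receptor to its signal, was bright on all arrays, at 5232 for CpG, 5107 for IFN-g+IL-10RB, and 6242 for triple, and Calca, which encodes CGRP and calcitonin, was just above background in CpG at 27.2. The calcitonin receptor Calcr, the ligands Calcb, Iapp, and Adm2, and the receptors Ackr3 and Gpr182 were not well above background on any array. Of 11 other receptors measured that are known to pair with a RAMP, 6 were well above background on some array and none was more than 2-fold different in any comparison. Of the 6, all but Gcgr were dim, with signals between 22.95 and 51.98, so that a 2-fold fall could hardly be seen. With normexp, 1 gene of the list was more than 2-fold lower for triple over CpG. Crhr1 and Gcgr were well above background on all arrays, Gcgr at 225 for CpG, 172 for IFN-g+IL-10RB, and 120 for triple.

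Among 7 genes that mature, break down, or bind these peptides, 6 were well above background on some array. Pam, the enzyme that amidates the end of adrenomedullin and CGRP, gave 351 for CpG, 134 for IFN-g+IL-10RB, and 92.3 for triple. Its CpG signal stood apart, by 1.37 on the log2 scale over IFN-g+IL-10RB, and triple over CpG was -1.87. With normexp, Pam was inside 2-fold for CpG over IFN-g+IL-10RB. Furin, Cpe, Ece1, and Ide, which cut the precursor or the peptide, stayed within 2-fold, and Mme was dim on all arrays.

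Of 19 genes of cyclic AMP signalling, 14 were well above background on some array, and the median log2 fold of the list was -0.54 for triple over IFN-g+IL-10RB, -0.51 for triple over CpG, and 0.15 for CpG over IFN-g+IL-10RB. The medians over all gene names were -0.05, -0.06, and 0.00. For triple over IFN-g+IL-10RB, 2 of 13 genes were more than 2-fold higher and 3 lower, against 6.57% and 9.31% of all gene names. Pde4b, a phosphodiesterase that breaks cyclic AMP down, gave 1110 for CpG, 400 for IFN-g+IL-10RB, and 3079 for triple. Of its own signals that of triple was the highest, by 2.98 on the log2 scale over IFN-g+IL-10RB and 1.53 over CpG. Prkar2b, a regulatory subunit of protein kinase A, was higher by 1.21 in triple and by 1.54 in CpG over IFN-g+IL-10RB. Rapgef3 (EPAC1), an exchange factor that cyclic AMP activates, gave 293 for CpG, 493 for IFN-g+IL-10RB, and 82.1 for triple. It was lowest in triple, by -2.56 over IFN-g+IL-10RB and -1.78 over CpG. Pde3b was at -1.35 for triple over IFN-g+IL-10RB, and Prkacb, a catalytic subunit of protein kinase A that was named after its values were seen, was at -1.10, and at -1.21 over CpG. The adenylyl cyclases Adcy7 and Adcy9, which make cyclic AMP, were at -1.32 and -1.55 for triple over CpG. For that comparison 1 of 14 genes was more than 2-fold higher and 4 lower, against 7.47% and 8.34% of all gene names. For CpG over IFN-g+IL-10RB 2 of 14 were higher, Pde4b and Prkar2b, and 0 lower, against 5.06% and 5.84%.

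Of 8 genes that cyclic AMP is known to induce, 6 were well above background on some array, and they moved in different directions. Crem, a repressor of cyclic AMP-driven transcription, gave 369 for CpG, 1322 for IFN-g+IL-10RB, and 2033 for triple, or 2.52 on the log2 scale for triple over CpG. The nuclear receptor Nr4a2 was at 1.90 for triple over IFN-g+IL-10RB, with a dim signal of 38.5 in the latter, and was inside 2-fold there with normexp. It was 5.56-fold higher in triple than in CpG, where its signal of 26.2 was not well above background. Its relative Nr4a1 was at -1.45 for triple over IFN-g+IL-10RB. Rgs2, which shortens signalling by G proteins, gave 31060 for CpG, 80070 for IFN-g+IL-10RB, and 5355 for triple. It was lowest in triple, at -3.87 over IFN-g+IL-10RB and -2.48 over CpG. The list counted 1 gene more than 2-fold higher and 2 lower for triple over IFN-g+IL-10RB, 2 higher and 1 lower for triple over CpG, and 0 higher and 3 lower, Crem, Nr4a1, and Rgs2, for CpG over IFN-g+IL-10RB. Its medians were 0.37, 0.06, and -0.88. Of all gene names, 6.57%, 7.47%, and 5.06% were higher in these comparisons, in this order, and 9.31%, 8.34%, and 5.84% were lower.

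All 9 measured genes of the 11 that desensitise and move such receptors were well above background on every array. Grk3, a kinase that marks active receptors for arrestin and is named Adrbk2 on the array, gave 1040 for CpG, 292 for IFN-g+IL-10RB, and 1752 for triple. It was lowest in IFN-g+IL-10RB, with log2 folds of 2.61 for triple and 1.81 for CpG over it. Its relatives Grk5 and Grk6 were higher in CpG than in IFN-g+IL-10RB by 1.68 and 1.01, and Arrb1 (β-arrestin 1) was at -1.32 for triple over CpG. Nherf1, Nsf, Rab5a, and Rab7 stayed within 2-fold. Counts of the 9 were 1 higher and 0 lower for triple over IFN-g+IL-10RB, 0 and 1 for triple over CpG, and 3 and 0 for CpG over IFN-g+IL-10RB, with medians of 0.35, 0.11, and 0.44. The shares of all gene names in this order were 6.57% and 9.31%, 7.47% and 8.34%, and 5.06% and 5.84%.

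Hypoxia-responsive genes were listed because Adm is known as such a gene. Of 17 genes 16 were measured and 14 were well above background on every array, with median log2 folds of -0.02 for triple over IFN-g+IL-10RB, 0.06 for triple over CpG, and -0.22 for CpG over IFN-g+IL-10RB. Ndrg1, a stress-responsive gene, gave 90540 for CpG, 615 for IFN-g+IL-10RB, and 4333 for triple, so that like Adm it was highest in CpG, by 7.18 on the log2 scale over IFN-g+IL-10RB. Triple was 2.85 above IFN-g+IL-10RB and -4.33 against CpG. Vegfa, the vascular growth factor, gave 321 for CpG, 2541 for IFN-g+IL-10RB, and 1697 for triple, and was thus lowest where Adm was highest. Slc2a1, a glucose transporter, was at 1.03 for triple over CpG. The remaining genes of the list were within 2-fold, among them Ldha, Pgk1, Bnip3, and Car9, or dim, as Egln3 and Hif1a. In all, the list counted, of 14 genes, 1 higher and 0 lower for triple over IFN-g+IL-10RB, 2 and 1 for triple over CpG, and 1 and 1 for CpG over IFN-g+IL-10RB. Among all gene names the shares were 6.57% and 9.31%, 7.47% and 8.34%, and 5.06% and 5.84% in the same order.

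**Figure D4:**
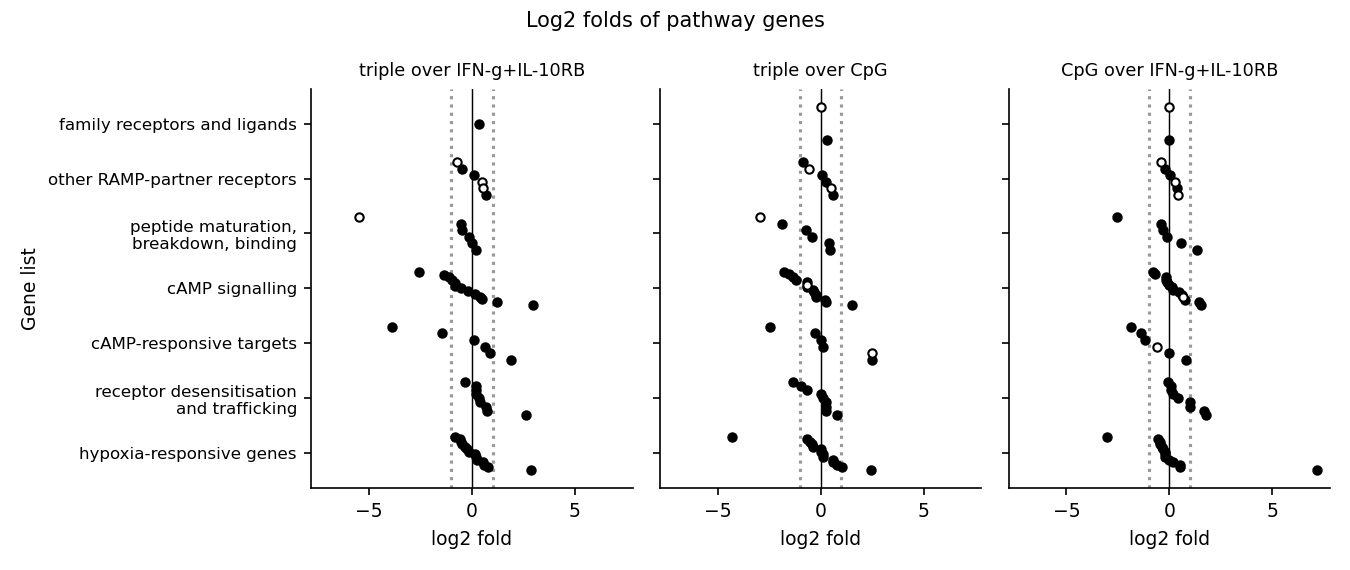
Log2 folds of the genes of the 7 pathway lists in the 3 comparisons, 1 symbol per gene well above background in at least 1 of the 2 arrays compared, open where only 1 of them was, with dotted lines at 2-fold. Among the far points are Ndrg1 at 7.18 for CpG over IFN-g+IL-10RB, Ndrg1 at -4.33 for triple over CpG, and Rgs2 at -3.87 for triple over IFN-g+IL-10RB.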

How the data were processed

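Total RNA of BMDMs was hybridized to 3 Agilent 1-colour arrays, 1 per condition, on 1 slide with 1 scan time, so that position on the slide and condition cannot be told apart. The authors deposited scanner files written by Agilent Feature Extraction 10.10.1.1, in which the processed signal is a background-subtracted intensity that is not scaled between arrays. They also deposited a table of log2 values, each column of which was the log2 processed signal minus a constant (all single-spot probes within 0.01; column medians -4.26, -4.38, and -4.27 for CpG, IFN-g+IL-10RB, and triple).

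Control spots and spots marked as outliers (between 3.04% and 3.78%) were left out, log2 signals were averaged over the spots of a probe, and the 75th percentile of each array (between 4377 and 4550, from the 21233 probes that passed the background test on every array) was subtracted. A probe with several spots counted as well above background where more than 50% of its spots were. A dimmer signal was raised to the lowest signal well above background of its array (23.8 for CpG, 26.7 for IFN-g+IL-10RB, 26.3 for triple), if it lay under it, and the fold is then a bound, given as "at least"; no fold is given where both signals were dim. The probe with the highest mean stood for its gene, which was called where it was more than 2-fold different and well above background on the higher array. The technical SD combined the SDs between replicate spots of like brightness on the arrays compared, and covers spot noise only. Precision is limited by the signal over background and by having 3 arrays.

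The members, gene lists, and motifs were chosen with earlier results of these data known. The genes named were every member, the genes of each list past 2-fold in any comparison, up to 6 with the largest fold, and the 5 genes closest to Ramp3. The same choice for Adm was void, since Adm was not well above background on all arrays. Genes within 2-fold, neighbours on the chromosome, and Prkacb were named after their values were seen. Promoters and gene order came from RefSeq tables of GRCm38.p6, and probe positions are those of the array design on mm9; exons and UTRs were not assigned. Some of the listed genes and searched motifs are not reported here. The alternatives were normexp (offset 50, limma 3.58.1, R 4.3.3), other scalings, the authors' table, other filters, thresholds of 1.5-fold and 3-fold, and the mean over probes. The code was tested on simulated data. Calculations used Python 3.11.15, numpy 2.4.6, and pandas 2.3.3.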

Additional observations from a re-analysis of the deposited data

How the results depend on the processing

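No paired analysis was possible because no condition had a second array. Of 169 values of member folds under the alternatives, 147 moved by less than their technical SD, 22 moved by more, and 0 of the calls past 2-fold turned their direction. This tally is no measure of robustness, because many of the values could hardly move. Scalings that subtract a constant shift all folds of a comparison alike, by less than the smallest technical SD of 0.18. Keeping outlier spots could reach the members only through the scaling, since no member spot was marked. With normexp, Ramp3 was at 3.57 for triple over IFN-g+IL-10RB and 3.47 for triple over CpG, Ramp2 was at -1.76 for triple and -1.91 for CpG over IFN-g+IL-10RB, and the Ramp1 junction probe was at -1.76, -0.71, and -1.05 for triple over IFN-g+IL-10RB, triple over CpG, and CpG over IFN-g+IL-10RB. Calcrl was at -0.56 for triple over IFN-g+IL-10RB, and Adm at -0.79 for triple over CpG and 0.85 for CpG over IFN-g+IL-10RB. Without filter and lower limit, Ramp2 was at -4.36 and -5.62, Adm at -2.30 and 2.42, and the junction probe at -5.35 and -3.92, which rest on signals at background. Ramp1, within 2-fold by its brightest probe, was at -1.03, -0.57, and -0.46 as the mean of its probes and at -3.32, -1.89, and -1.43 by its junction probe, for triple over IFN-g+IL-10RB, triple over CpG, and CpG over IFN-g+IL-10RB. Counts of pathway genes at 1.5-fold against 2-fold were 12 against 5 higher and 12 against 6 lower for triple over IFN-g+IL-10RB, 10 against 5 higher and 17 against 9 lower for triple over CpG, and 12 against 7 higher for CpG over IFN-g+IL-10RB. At 3-fold they were 3 lower for triple over IFN-g+IL-10RB, 3 higher and 5 lower for triple over CpG, and 3 higher and 3 lower for CpG over IFN-g+IL-10RB, where 5 were lower at 2-fold. Without filter and lower limit they were 11 lower for triple over IFN-g+IL-10RB, and 11 higher and 9 lower for CpG over IFN-g+IL-10RB. Shares of all gene names are given at 2-fold only, so that these counts show the effect of the settings and no trait of the lists. Scalings moved the median of all genes by up to 0.11 (75th percentile over all probes) and -0.17 (spike-in probes) for triple over IFN-g+IL-10RB. Signals near or at background limit the values of every member, and cultures were not replicated.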
